A study of Mus musculus with 4 samples.

Results

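The exons of the kinesin motor genes were followed through 4 RNAseq libraries from mouse brain with and without PTBP2, a polypyrimidine tract binding protein that represses or activates alternative exons in developing neurons. They were taken as every exon trio (an internal exon with its neighbors on either side) in a gene whose symbol is Kif followed by a digit, with gene names assigned by matching the chromosome, strand, exon length and both intron lengths of each trio to the GENCODE annotation (mouse release M21). The deposited tables held 946 such trios among 228333, from 37 Kif genes. Keeping 1 trio per internal exon left 830 kinesin exons of 180955 in all, of which 34 of the series' 9319 were cassette exons, listed as alternatively skipped, and 796 were labelled constitutive. At least 20 junction reads in both libraries of a stage were found for 698 of them, which were 30 cassette exons in 14 genes and 668 constitutive-labelled exons. The 4 cassette exons without this depth were the 178 nt and 142 nt exons of *Kif15*, the 42 nt exon of *Kif23* and the 243 nt exon of *Kif9*, and 21 Kif genes had no cassette exon listed. One matching symbol, *Kif1bp*, belongs to a gene for a kinesin-binding protein and not for a motor.

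Kinesins are motor proteins that use ATP to move along microtubules. Their families share a motor domain and differ in their stalks and tails, which pair the subunits and hold the cargo. In neurons, kinesin-1, kinesin-2 and kinesin-3 motors carry vesicles, organelles and RNA into axons and dendrites, members of the kinesin-4 and kinesin-13 families control microtubule growth and disassembly, and a further group builds and moves the mitotic spindle in dividing progenitors.

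PolyA+ RNA was sequenced as paired reads of 100 nt from mice of a Mixed C56Bl/6:129S2 background, with 1 library per group. At E18 RNA came from the brains of 2 NesKO embryos, where Cre under the nestin promoter removes exon 4 of a loxP-flanked *Ptbp2* in neural progenitors and their descendants, and from 2 wild-type brains. At P1 the cortex of 1 EmxKO animal, in which Cre driven by *Emx1* acts in the dorsal forebrain lineage and leaves other cells of the cortex intact, was compared with the cortex of 1 littermate labelled wild type. The E18 libraries were not strand specific and the P1 libraries were, so age, tissue, Cre line and protocol differ together between the stages and cannot be told apart. The groups have no replicates, and each exact test below compares 2 libraries and not 2 conditions.

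The 4 tables held between 48367448 and 83394001 distinct junction reads, and the median tested kinesin cassette exon had between 167 and 306.5 of them in a library. At those medians the smallest share that 3 reads could show lay between 0.979% and 1.80%. The targeted exon 4 of *Ptbp2* had a deposited PSI (percent spliced in, the share of transcripts that include an exon) of 99.9 in the E18 wild type and 0.1 in the NesKO. At P1 it was 15.9 in the EmxKO, but 67.5 in the library labelled wild type, where 604 reads joined exon 3 to exon 5. That library therefore also skipped the targeted exon in part, which applies to every P1 difference and to every comparison between the stages reported here. Defining markers placed the libraries by tissue, with *Pax2* of the hindbrain and midbrain giving 670 and 599 reads at E18 and 0 and 2 reads at P1. In these bulk tissues fewer cells of a type and less RNA per cell cannot be told apart.

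The sequences of the exons that carry the results are shown first, so that the short lengths and their shared ends can be seen. Capitals mark the exon, lower-case letters mark 12 bases of the neighboring exon on each side as joined in the spliced transcript, all are read 5′ to 3′ along the gene, and coordinates are GRCm38 with sequences from the GENCODE transcripts. Exon numbers and codon counts throughout are those of the transcript matched to each exon. Numbers from different transcripts of a gene do not give the order of its exons. Exon 2 of *Kif1b*, for example, is numbered in a transcript of 13 exons. The first 3 show that the 24 nt and 27 nt exons of *Kif1a* join the same neighbors. They also show the exon of the paralog *Kif1b* in the corresponding place, which matches the 27 nt exon at 20 of 27 bases (74.1%).
Kif1a 24 nt exon 37 (chr1:93026832-93026855, minus strand): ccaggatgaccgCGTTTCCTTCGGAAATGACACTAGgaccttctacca
Kif1a 27 nt exon 37 (chr1:93034546-93034572, minus strand): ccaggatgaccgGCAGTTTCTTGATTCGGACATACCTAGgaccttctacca
Kif1b 27 nt exon 2 (chr4:149195473-149195499, minus strand): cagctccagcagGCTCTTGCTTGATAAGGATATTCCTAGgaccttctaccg

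The next pair lies at the same place in both proteins, after 393 complete codons of the annotated coding sequence of *Kif1a* and of *Kif1b*, and is shown because the exons differ in how their PSI varied between the libraries.
Kif1a 27 nt exon 14 (chr1:93065552-93065578, minus strand): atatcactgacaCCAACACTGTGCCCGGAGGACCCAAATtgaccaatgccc
Kif1b 42 nt exon 14 (chr4:149261160-149261201, minus strand): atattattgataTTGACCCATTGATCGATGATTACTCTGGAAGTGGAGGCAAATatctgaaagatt

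The following exons of *Kif21a* and *Kif2a* passed the test in at least 1 comparison, except the 15 nt exon, which is shown because it follows the 39 nt exon 26 directly and begins after its last bases.
Kif21a 39 nt exon 12 (chr15:90976471-90976509, minus strand): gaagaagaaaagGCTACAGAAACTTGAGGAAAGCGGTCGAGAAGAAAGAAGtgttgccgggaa
Kif21a 39 nt exon 26 (chr15:90949006-90949044, minus strand): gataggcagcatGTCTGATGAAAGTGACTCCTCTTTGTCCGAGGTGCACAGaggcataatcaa
Kif21a 15 nt exon 29 (chr15:90948324-90948338, minus strand): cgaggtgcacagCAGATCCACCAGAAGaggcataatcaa
Kif2a 114 nt exon 17 (chr13:106969704-106969817, minus strand): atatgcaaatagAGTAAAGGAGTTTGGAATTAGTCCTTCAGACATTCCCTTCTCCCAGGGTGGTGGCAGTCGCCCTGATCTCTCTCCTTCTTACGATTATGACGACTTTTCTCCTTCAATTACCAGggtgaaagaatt

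Kinesin cassette exons were often a multiple of 3 long. Of the 30 tested, 24 lay wholly in coding sequence, and 21 of these had a length that keeps the reading frame. For the 27 nt exon of *Kif1b* and the 39 nt exon of *Kif13a* the reading frame is uncertain. Their matched transcripts have 13 and 6 exons, and codons were counted as if the first annotated coding base opened a codon. In that count each exon held 3 stop codons, although both are annotated as wholly coding. The count is therefore not taken as a property of these exons, and their frame in longer transcripts was not checked. Counting untranslated and partly coding exons too, 24 were a multiple of 3 long (80% against 50.3% of the 7214 tested cassette exons of all genes) and 8 were 27 nt or shorter (26.7% against 4.91%). Their lengths ran from 9 to 383 nt with a median of 67.5 nt, against 102 nt for all tested cassette exons.

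An exon is called different here when its deposited PSI differed by at least 10 points and a two-sided Fisher's exact test on its junction reads gave an adjusted p below 0.05 (Benjamini-Hochberg, over all cassette exons tested). In the NesKO, 3 of 30 kinesin cassette exons were called, in *Kif1a*, *Kif21a* and *Kif21b*, and all 3 were included more. The background was 2.77% of 6748 cassette exons called, and 2.09% called with higher inclusion. In the EmxKO, the same 3 exons and 1 of *Kif2a* were called among 27 tested, all 4 with higher inclusion, against 3.6% of 6940 called and 2.91% called higher.

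Among all tested kinesin cassette exons, called or not, the deposited PSI was higher in the NesKO for 22, lower for 6 and equal for 2, with a median difference of 1.65 points where the median over all cassette exons was 0. In the EmxKO it was higher for 19, lower for 7 and equal for 1, with a median of 1.7 points against 0.2. A difference of 10 points without the exact test was seen for 8 exons in the NesKO (background 10.9%) and for 6 in the EmxKO (background 9.42%). The called exons thus took 3 of the 8 and 4 of the 6.

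Between the libraries labelled wild type, 3 of 28 kinesin cassette exons were called, 1 higher and 2 lower in P1 cortex than in E18 brain, and all were in *Kif1a* or *Kif21a*. The background was 11.2% of 6726 called, 4.76% higher and 6.44% lower at P1. A difference of 10 points alone was seen for 6 of the 28, against 20.9% of all.

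**Figure D1:**
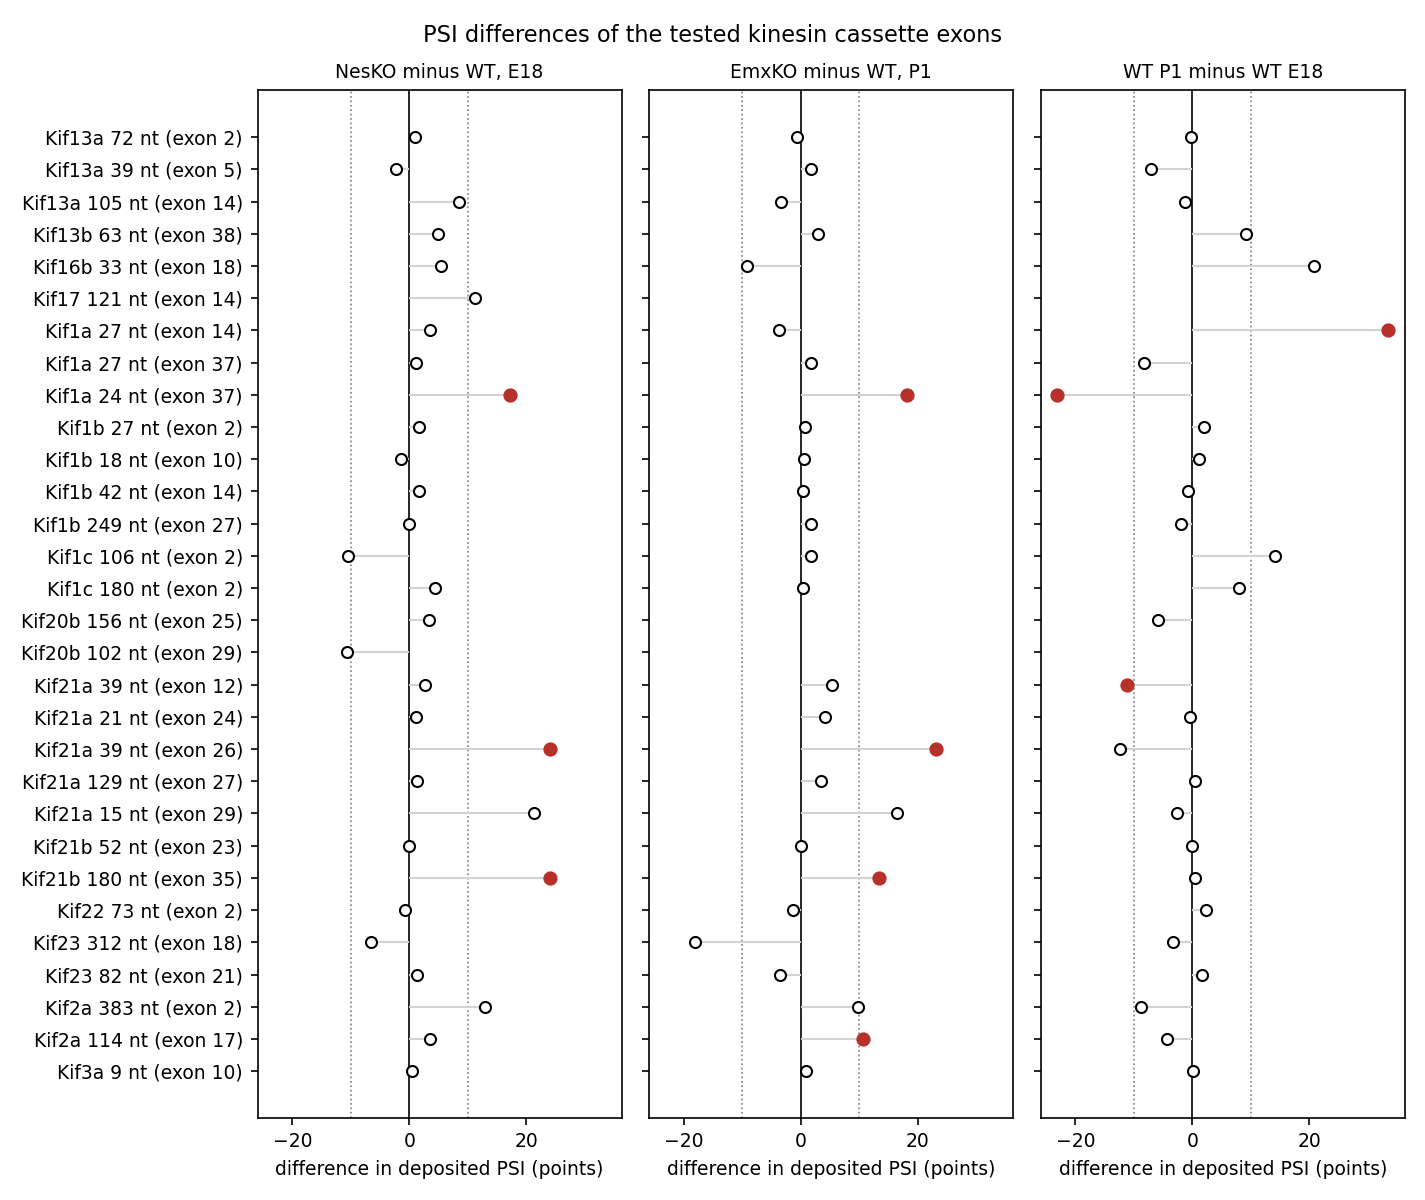
Difference in deposited PSI (x axis, points) for each of the 30 tested kinesin cassette exons (y axis) in the NesKO against wild type at E18, the EmxKO against the library labelled wild type at P1, and the P1 against the E18 library labelled wild type. Filled points are called exons, dotted lines mark 10 points, and a missing point had fewer than 20 junction reads. The filled points of both knockout panels all lie to the right of zero, between 10.7 and 24.1 points, and the third panel has filled points on both sides, from -23.1 to 33.5.

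The kinesin-3 motor *Kif1a*, which carries synaptic vesicle precursors and dense core vesicles along axons, held 3 tested cassette exons with different patterns. Its 24 nt exon 37 (mm9 chr1:94923409-94923432, minus strand, after 1233 of 1697 codons, in the tail beyond the motor domain) had a deposited PSI of 55.6 in the E18 wild type, 72.8 in the NesKO, 32.5 in the P1 library labelled wild type and 50.6 in the EmxKO. Both knockouts were higher than the library they were compared with, and both P1 libraries were lower than their E18 counterparts.

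From junction reads alone, taking inclusion as the mean of the reads on both of its junctions, the 24 nt exon was included in 42.2% of *Kif1a* transcripts in the E18 wild type (95% Wilson interval, 39.7 to 44.8, which as all intervals here covers counting error only) and in 60.9% in the NesKO (58.2 to 63.4). The difference of 18.6 points (95% interval, 14.9 to 22.2) passed Fisher's exact test at an adjusted p of 2.04e-20. At P1 inclusion was 22.8% (21.5 to 24.2) and 38.5% (37.0 to 39.9), a difference of 15.7 points (13.7 to 17.6) with an adjusted p of 1.2e-49 in Fisher's exact test. With the smaller junction the P1 difference was 8.75 points, under the 10-point limit (adjusted p = 2.11e-21, Fisher's exact test). The exon fell by 23.1 points of deposited PSI between the libraries labelled wild type, E18 to P1 (adjusted p = 3.4e-40, Fisher's exact test). Its upstream junction held 301 reads and its downstream junction 927 in the E18 wild type, and in every library the downstream junction held more.

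The 27 nt exon 37 of *Kif1a* (mm9 chr1:94931123-94931149) lies in the same intron and joins the same exons of 106 nt and 115 nt. Its deposited PSI was 13.4 and 14.6 at E18 and 5.2 and 6.9 at P1 (the library labelled wild type first), and neither knockout passed the test (adjusted p = 1 and 0.101, Fisher's exact test). The P1 library labelled wild type was 8.2 points below that of E18, short of the 10-point limit (adjusted p = 1.88e-08, Fisher's exact test).

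Because both exons share their neighbors, the reads were also divided among 3 outcomes. Reads joining the 24 nt and 27 nt exons to each other were not counted, so transcripts with both are not set apart. The 24 nt exon took 40.1% of the junction reads in the E18 wild type, 58.4% in the NesKO, 22.2% in the P1 library labelled wild type and 37.4% in the EmxKO. The 27 nt exon took 5.12%, 3.99%, 2.60% and 2.94%, in the same order. Transcripts with neither exon made up 54.8%, 37.6%, 75.2% and 59.7%. The 3 shares make up the whole, so a higher share of the 24 nt exon in each knockout must leave less for the other outcomes. The 27 nt exon stayed between 2.60% and 5.12% in the 4 libraries, so the lower share fell on transcripts with neither exon. The corresponding 27 nt exon of *Kif1b* had a deposited PSI of 1.4, 3.1, 3.4 and 4.1.

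**Figure D2:**
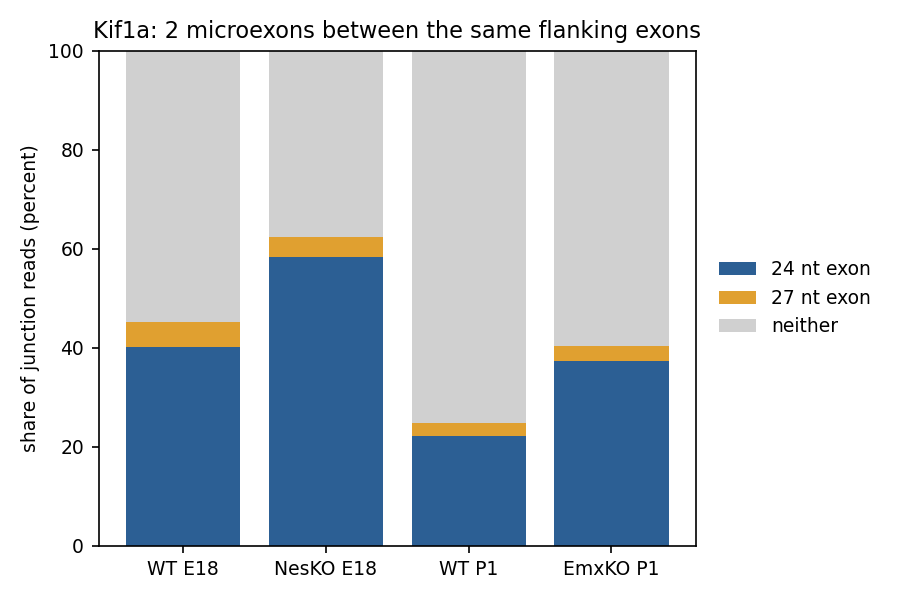
Share of junction reads (y axis, percent) that included the 24 nt exon, the 27 nt exon or neither between the same neighbors of *Kif1a*, as stacked bars for the 4 libraries (x axis). The 24 nt part is higher in each knockout than beside it, 58.4% against 40.1% at E18 and 37.4% against 22.2% at P1.

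The third, the 27 nt exon 14 of *Kif1a* (mm9 chr1:94962129-94962155), sits close behind the motor domain and differed between the stages. Its deposited PSI was 23.9 in the E18 wild type, 27.4 in the NesKO, 57.4 in the P1 library labelled wild type and 53.7 in the EmxKO. Both P1 libraries were above both E18 libraries. Between the libraries labelled wild type it rose by 33.5 points, or 29.4 points in junction reads (27.1 to 31.5, adjusted p = 1.14e-138, Fisher's exact test). Its junctions held unequal reads, 372 upstream and 622 downstream at E18 against 528 and 2113 at P1, and with the smaller junction as the measure of inclusion the rise was 12.5 points (adjusted p = 7.37e-29, Fisher's exact test). The knockout differences of 3.5 and -3.7 points were not called (adjusted p = 0.132 and 0.0655, Fisher's exact test).

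At the same codon of *Kif1b*, a kinesin-3 gene whose products carry mitochondria or synaptic vesicle precursors, the 42 nt exon 14 had a deposited PSI of 19.2, 20.8, 18.4 and 18.8. The 4 libraries lay between 18.4 and 20.8. In junction reads the NesKO differed by 0.983 points (-3.79 to 5.75), the EmxKO by 0.453 (-2.84 to 3.64) and the P1 from the E18 library labelled wild type by 0.192 (-3.73 to 3.92), none past the test. The 18 nt exon 10 of *Kif1b* stood at 88.9, 87.5, 90.1 and 90.7, but no read was listed on its upstream junction in any library, so its level rests on its downstream junction. The 249 nt exon 27 of *Kif1b* lay between 95.6 and 97.5, and its 1.8-point difference at P1 passed the exact test without reaching 10 points (adjusted p = 0.00302, Fisher's exact test).

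The other kinesin-3 genes gave no called exon. *Kif1c*, a widely expressed vesicle motor, has 2 versions of an untranslated exon 2 that end at the same base. The 180 nt version had a deposited PSI of 74.8, 79.2, 82.7 and 83.0, and the 106 nt version 64.8, 54.4, 78.9 and 80.7. Both versions share their downstream and skipping junctions, with 50 and 48 downstream reads listed in the E18 wild type. Their PSI values are therefore not separate shares of *Kif1c* transcripts. The 106 nt version was 10.4 points lower in the NesKO and 14.1 points higher at P1 than at E18 between the libraries labelled wild type, and neither difference passed (adjusted p = 1 and 0.489, Fisher's exact test).

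*Kif13a*, which moves recycling endosomes, included its 105 nt exon 14 at 18.8, 27.4, 17.6 and 14.2, where the NesKO was 8.6 points above and the EmxKO 3.4 points below their comparison libraries without passing the test (adjusted p = 0.837 and 0.843, Fisher's exact test). *Kif13b* had 14, 19, 23.2 and 26.1 for its 63 nt exon 38. *Kif16b*, a motor of early endosomes, had 75.0, 80.5, 95.8 and 86.6 for its 33 nt exon 18, and the 20.8-point difference between the libraries labelled wild type rested on 11 and 2 skipping reads (adjusted p = 0.177, Fisher's exact test).

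Kinesin-4 proteins of the *Kif21* pair slow or stop microtubule growth, and KIF21B is enriched in neurons. The 39 nt exon 26 of *Kif21a* (mm9 chr15:90779437-90779475, minus strand, after 1205 of 1573 codons) had a deposited PSI of 42.5 in the E18 wild type, 66.6 in the NesKO, 30.2 in the P1 library labelled wild type and 53.4 in the EmxKO. The knockouts were the highest libraries at both stages. In junction reads it was included in 35.9% (30.8 to 41.4) and 61.5% (54.4 to 68.1) at E18, a rise of 25.5 points (16.6 to 33.9, adjusted p = 1.93e-06, Fisher's exact test). At P1 it rose from 28.7% (23.3 to 34.8) to 52.7% (44.0 to 61.6), by 24 points (13.5 to 34.4, adjusted p = 0.00028, Fisher's exact test). Skipping reads numbered 198, 74, 169 and 57. The 12.3-point difference between the libraries labelled wild type, lower at P1, did not pass (adjusted p = 0.253, Fisher's exact test), but passed with the smaller junction (-14.1 points, adjusted p = 0.00511, Fisher's exact test).

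The 15 nt exon 29 of *Kif21a*, in transcripts that also hold the 39 nt exon 26 before it, showed deposited PSI values of 27.4, 48.8, 24.8 and 41.2. Each knockout was higher by 21.4 and 16.4 points, but the exon had no read on its upstream junction in any library and between 30 and 54 junction reads in all, and it did not pass (adjusted p = 1 at both stages, Fisher's exact test). In junction reads the differences were 10.7 points (-16.5 to 31.0) and 7.84 points (-18.1 to 32.1).

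The 39 nt exon 12 of *Kif21a* (mm9 chr15:90806902-90806940, after 557 of 1672 codons) had a deposited PSI of 77.9, 80.6, 66.7 and 72.1. Both P1 libraries were below both E18 libraries. It fell by 11.2 points between the libraries labelled wild type (13.4 points in junction reads, adjusted p = 0.00589, Fisher's exact test), and neither knockout passed. This call depended on the unequal reads of its junctions, 32 upstream and 236 downstream in the E18 wild type against 205 and 548 at P1. With the smaller junction as the measure of inclusion the difference turned to 5.71 points in the other direction (adjusted p = 0.744, Fisher's exact test). The 21 nt exon 24 of *Kif21a* stood at 88.1, 89.2, 87.7 and 91.8, and its 129 nt exon 27 between 1.8 and 5.8.

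The 180 nt exon 35 of *Kif21b* (mm9 chr1:138070049-138070228, plus strand) holds the last 97 coding bases and a further 83 bases after them in the single annotated transcript that includes it, a transcript that GENCODE classes as a target of nonsense-mediated decay. The transcript without the exon is classed as protein coding. Its deposited PSI was 68.8 in the E18 wild type, 92.8 in the NesKO, 69.2 in the P1 library labelled wild type and 82.5 in the EmxKO. Both knockouts were above both libraries labelled wild type. The latter differed by 0.4 points in deposited PSI, by 5.07 points in junction reads (1.90 to 8.27, adjusted p = 0.0117, Fisher's exact test) and by 10.02 points with the smaller junction (adjusted p = 3.97e-07, Fisher's exact test), P1 being higher.

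In junction reads the *Kif21b* exon was included in 67.7% (65 to 70.3) of E18 wild-type and 93.2% (91.6 to 94.5) of NesKO transcripts, a rise of 25.5 points (22.4 to 28.5, adjusted p = 5.38e-56, Fisher's exact test). At P1 it rose from 72.8% (71.0 to 74.4) to 89.7% (88.5 to 90.7), by 16.9 points (14.9 to 18.9, adjusted p = 2.65e-58, Fisher's exact test). Skipping reads numbered 374 and 83 at E18 and 710 and 312 at P1. The share of all junction reads that fell in *Kif21b* differed little, with a NesKO to wild type ratio of 1.03 and an EmxKO ratio of 1.17.

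*Kif2a*, a kinesin-13 that takes microtubules apart and restrains the growth of axon branches, had 1 called exon at P1. Its 114 nt exon 17 (mm9 chr13:107759784-107759897, minus strand, after 547 of 743 codons) had a deposited PSI of 83.1, 86.6, 78.8 and 89.5. Skipping reads numbered 72, 48, 182 and 49. The EmxKO rose by 10.7 points (8.72 in junction reads, 4.88 to 12.2, adjusted p = 0.000367, Fisher's exact test), while the NesKO, 3.5 points above its control, did not pass (adjusted p = 0.925, Fisher's exact test). With PSI from junction reads the P1 difference is under the 10-point limit. The untranslated 383 nt exon 2 of *Kif2a* had a deposited PSI of 16.6, 29.5, 7.8 and 17.6 but a junction-read PSI of only 4.79, 3.95, 1.11 and 5.71, and was not called in either knockout (adjusted p = 1 at E18 and 0.014 at P1, Fisher's exact test).

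**Figure D3:**
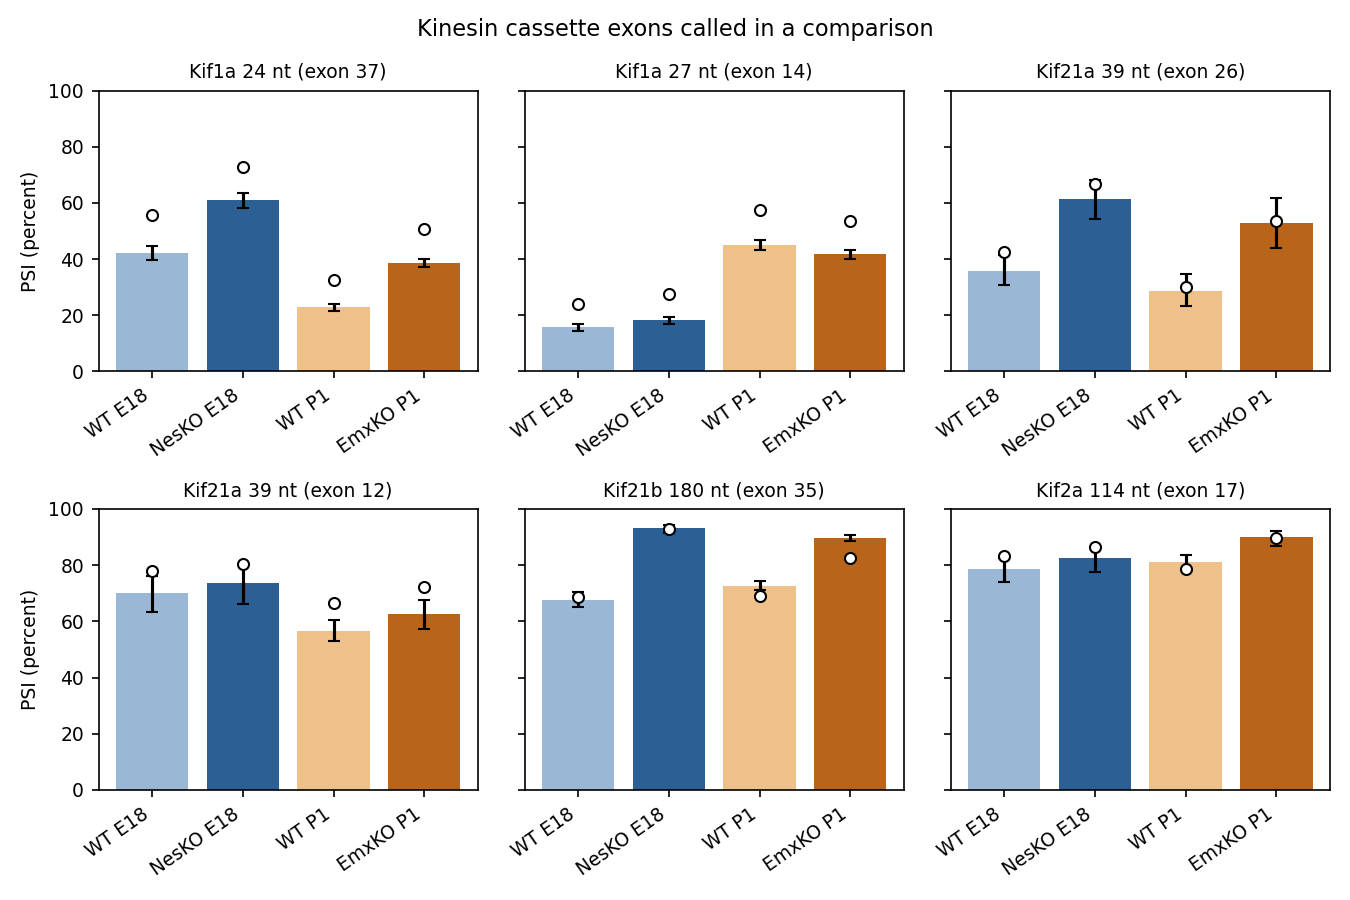
PSI (y axis, percent) of the 6 kinesin exons called in at least 1 comparison, by library (x axis). Bars give PSI from junction reads with 95% Wilson intervals for counting error, and circles give the deposited PSI. Each knockout bar stands above the bar before it for *Kif1a* exon 37, *Kif21a* exon 26 and *Kif21b*, while *Kif1a* exon 14 separates P1 (57.4 and 53.7 deposited PSI) from E18 (23.9 and 27.4).

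In the kinesin-2 family the 9 nt exon 10 of *Kif3a*, a subunit of the motor that builds cilia, was included at 97, 97.5, 97.1 and 98.0. The 121 nt exon 14 of *Kif17*, a dendritic motor, had a deposited PSI of 87.6 and 98.9 at E18, and its 11.3-point difference rested on 4 and 1 skipping reads (adjusted p = 1, Fisher's exact test). Motors of cell division had few reads. The 102 nt exon 29 of *Kif20b*, which acts in cytokinesis, stood at 34.6 and 23.9 at E18 (10.7 points lower in the NesKO, adjusted p = 1, Fisher's exact test), and its 156 nt exon 25 at 96.5 and 99.9. The 312 nt exon 18 of *Kif23*, a subunit of the central spindle complex, stood at 85.7, 79.1, 82.4 and 64.3. Its 18.1-point lower PSI in the EmxKO rested on 9 and 10 skipping reads (adjusted p = 0.637, Fisher's exact test). The tested exons of *Kif13a* (72 nt and 39 nt), *Kif22* (73 nt), *Kif23* (82 nt) and *Kif21b* (52 nt) stayed below 10 or above 96 in deposited PSI in every library.

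Whether the effect of the knockout differed between the stages was tested on the log odds ratios of inclusion (Wald chi-square test, adjusted over the 6474 cassette exons tested at both stages, of which 1.44% passed). Of 17 named kinesin exons tested, 2 passed. For the 180 nt exon of *Kif21b* the log odds ratio was 1.87 in the NesKO and 1.18 in the EmxKO, a difference of 0.69 with a standard error of 0.15 (adjusted p = 0.000557, Wald chi-square test on reads). Both were above zero. For the 27 nt exon 14 of *Kif1a* it was 0.18 in the NesKO and -0.14 in the EmxKO, a difference of 0.32 with a standard error of 0.083 (adjusted p = 0.0131, Wald chi-square test on reads). With the smaller junction the *Kif21b* exon passed and this exon did not (adjusted p = 4.99e-06 and 0.0557, Wald chi-square test), an alternative chosen after seeing the data. The 24 nt exon of *Kif1a* and the 39 nt exon 26 of *Kif21a* gave adjusted p values of 1, and the *Kif2a* exon 0.697, so the call of *Kif2a* at P1 alone was not shown to differ from E18.

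Exons labelled constitutive were seldom called in any gene. Among those of the kinesins, none of 620 was called in the NesKO and none of 624 in the EmxKO (0 in both by Fisher's exact test with the 10-point limit). Of such exons in all genes 0.0335% and 0.0304% were called, so the kinesin exons were near the background. Between the libraries labelled wild type 0 of 615 were called, and the share over all genes was not computed for that comparison. Junction-read PSI was above 95 in all libraries for 645 of the 668, and 461 had no skipping read. A few were skipped more often, chosen here after their values were seen. The 13 nt exon of *Kif13a* had a deposited PSI of 75.9, 72.7, 79.3 and 73.8, and the 453 nt exon of *Kif17* 97.8, 92.6, 82.8 and 86.6. The 99 nt exon of *Kif4*, a chromosome-bound motor, had 83.4, 74.7, 94.4 and 93.8. The 150 nt exon of the binding protein gene *Kif1bp* had 66 skipping reads in the P1 library labelled wild type and 11 in the EmxKO. Its deposited difference was 3.3 points (adjusted p = 4.09e-07, Fisher's exact test, adjusted over cassette and constitutive-labelled exons together).

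The depth behind these exons followed the level of each gene, measured as its distinct junction reads in every 1000000 (RPM), divided by the number of its junctions. The highest of the 37 in the E18 wild type were *Kif1a* with 55.1, *Kif5a*, a kinesin-1 heavy chain of neurons, with 43.3, and *Kif21b* with 42.4. In the same order, the NesKO had 55.9, 38.2 and 43.5, the P1 library labelled wild type 36.9, 23 and 36, and the EmxKO 47.9, 28.4 and 42.1. At P1 the kinesin-1 heavy chain *Kif5c* reached 39.6 in the library labelled wild type. Of the other genes with a called exon, *Kif21a* had 7.24, 5.79, 5.68 and 3.20 and *Kif2a* 7.70, 5.59, 10.4 and 4.85.

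With 1 library per group, gene levels were compared by the ratio of RPM, with no test. In the NesKO 1 of 36 Kif genes was past 1.5-fold, against 10.8% of 13367 genes past it and 6.9% lower. This was *Kif3b*, a kinesin-2 subunit, with 10.9 RPM per junction in the wild type and 7.02 in the NesKO, a ratio of 0.646 (95% exact interval for counting error, 0.616 to 0.678). The 36 ratios ran from 0.646 to 1.19 with a median of 0.843, where the median of all genes was 0.965.

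In the EmxKO, 8 of 36 Kif genes were 1.5-fold or more lower and none was higher, against 23.1% of 12960 genes past 1.5-fold and 17.3% lower, so the share among Kif genes was near the background. They were *Kif18a*, which acts in chromosome alignment, at a ratio of 0.282 (0.218 to 0.362), the spindle motor *Kif11* at 0.316 (0.289 to 0.345), the kinesin-1 heavy chain *Kif5b* at 0.423, *Kif4* at 0.460, *Kif2a* at 0.465, the spindle motor *Kif15* at 0.547, *Kif21a* at 0.564 and *Kif23* at 0.605. Among 11 kinesins of mitosis, 5 were 1.5-fold or more lower in the EmxKO with a median ratio of 0.713, and none was past 1.5-fold in the NesKO (median 0.814). Among 13 kinesins of axonal and dendritic transport, 2 were lower in the EmxKO with a median of 1.09 and 1 in the NesKO with a median of 0.8.

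In summed level, markers of dividing cells were lower with the mitotic group at P1 and not at E18, but their members were divided. At P1, 4 of 8 markers were 1.5-fold or more lower in the EmxKO (*Bub1*, *Top2a*, *Pcna* and *Mki67*). *Mcm2* was higher at a ratio of 1.12, and *Aurkb* (0.953), *Cdk1* (0.936) and *Ccnb1* (0.894) were closer to even. Of the mitotic kinesins *Kif18b* had a ratio of 1.11. The summed level of the 8 markers at P1 was 288 RPM in the library labelled wild type and 175 in the EmxKO. At E18, 0 of 8 markers were past 1.5-fold and their sums were 276 and 291, while those of the mitotic kinesins were 131 and 117. Over all genes, 6.9% were 1.5-fold or more lower and 3.88% higher in the NesKO, and 17.3% lower and 5.77% higher in the EmxKO. Neuron markers were lower for 2 of 6 at each stage, *Snap25* and *Syt1* in the NesKO and *Map2* and *Snap25* in the EmxKO. At each stage 1 of the 6 had a ratio above 1, *Stmn2* at 1.08 in the NesKO and *Rbfox3* at 1.24 in the EmxKO. Microglia markers were higher for 1 of 3 in the NesKO and 3 of 3 in the EmxKO (summed level, 32 and 49.5 RPM at P1). Of 6 radial glia and astrocyte markers, 1 was higher and 1 lower at each stage, with *Gfap* at a ratio of 2.78 and 2.35, *Slc1a3* at 0.484 in the NesKO and *Fabp7* at 0.536 in the EmxKO. Of 4 oligodendrocyte lineage markers, *Pdgfra* was lower in the NesKO (0.572) and *Sox10* higher in the EmxKO (1.63). The part of these markers in the gene ratios was not tested.

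The gene ratios also moved with base composition. Across 12619 genes at P1, the ratio and the GC content of the longest coding transcript had a Spearman rho of 0.690, and across the 36 Kif genes 0.755. At E18 the values were 0.422 across 13070 genes and 0.492 across 36. The genes of a comparison share its 2 libraries, and genes are not independent replicates. The 8 Kif genes lower in the EmxKO had a GC content of 38.3% to 48.1% (median 42.5%) and the other 28 of 39.4% to 61.7% (median 51.5%). Set against the median of all genes in the same GC bin (genes cut into 10 bins of equal size), an alternative chosen after seeing the data, *Kif11* (0.478), *Kif4* (0.492), *Kif18a* (0.561) and *Kif21a* (0.604) stayed 1.5-fold or more lower, *Kif2a* (0.924), *Kif5b* (0.840), *Kif15* (0.827) and *Kif23* (0.734) did not, and *Kif20b* (1.64) was higher. The PSI of an exon compares reads within 1 gene and library, and it was not scaled in this way.

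**Figure D4:**
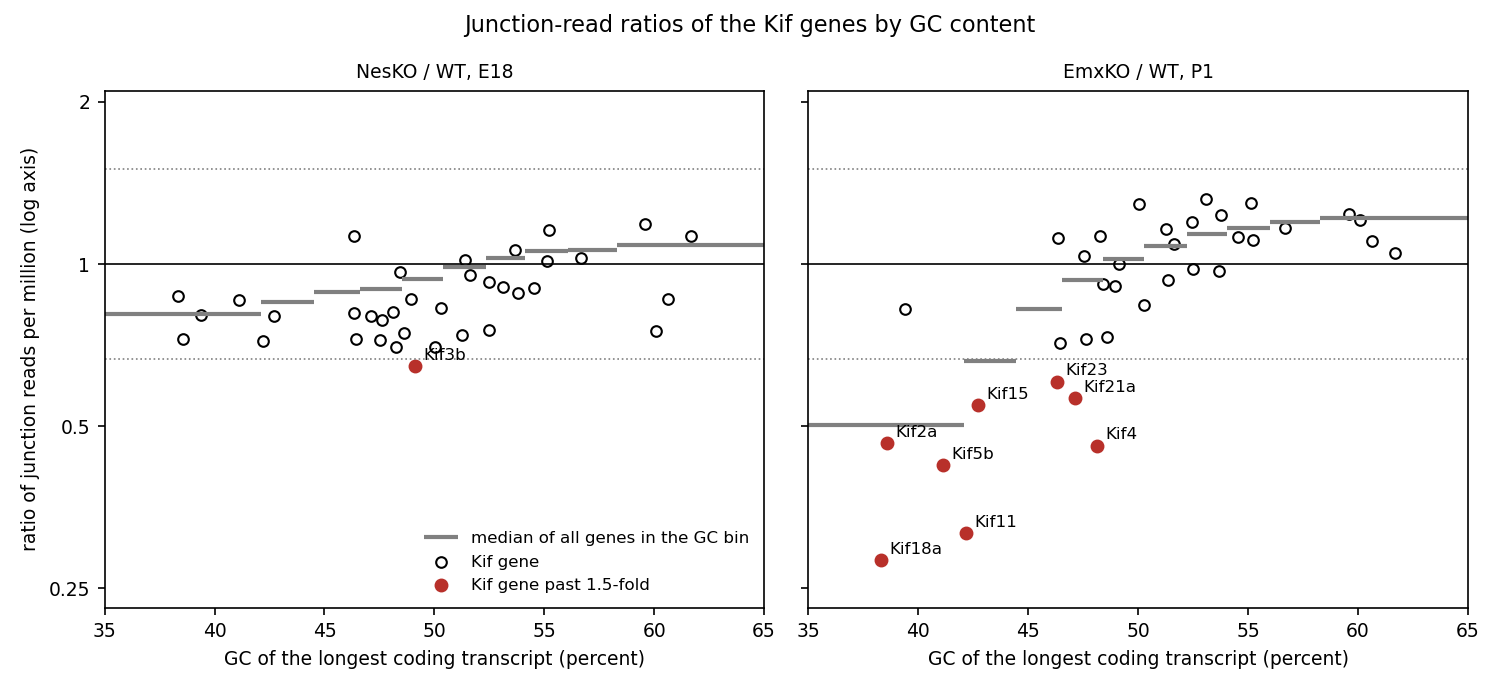
Ratio of RPM, the junction reads of a gene in every 1000000, knockout over the library labelled wild type (y axis, log scale), against the GC content of the longest coding transcript (x axis, percent) for 36 Kif genes at E18 and at P1. Filled points are past 1.5-fold (dotted lines) and gray bars give the median of all genes in each of 10 GC bins. At P1 the gray bars climb from 0.503 in the lowest bin to 1.22 in the highest, and the 8 filled points lie at a GC content of 48.1% or less.

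Genes for cargo adaptors, light chains and regulators of kinesins, and for the Kifc motors, were read in the same way. Of these 28 genes, 1 was 1.5-fold or more higher and 1 lower in the NesKO (3.88% and 6.9% of all genes), and 3 higher and 2 lower in the EmxKO (5.77% and 17.3%). Their 30 tested cassette exons gave no call in the NesKO (background 2.77%) and 1 in the EmxKO (3.6%), numbers near those shares. The call was the 54 nt exon of *Madd*, an adaptor of *Kif1a* and *Kif1b* cargo, with a deposited PSI of 85.0, 92.6, 74.9 and 87.6, which rose by 12.7 points at P1 (adjusted p = 2.91e-09, Fisher's exact test) and was 7.6 points higher in the NesKO. Between the libraries labelled wild type 3 of the 30 fell from E18 to P1 (6.44% of all). They were the same *Madd* exon by 10.1 points, a 60 nt exon of *Madd* by 19.5 (39.4, 38.5, 19.9 and 28.1) and a 66 nt exon of *Kifap3*, the cargo-binding subunit of kinesin-2, by 34.4 points (46.8, 40.5, 12.4 and 16.8, adjusted p = 1.97e-53, Fisher's exact test).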

How the data were processed

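RNAseq libraries of NesKO and wild-type brain at E18 and of EmxKO and wild-type cortex at P1 were analyzed. The authors aligned reads to pairs and trios of annotated exons using SpliceTrap, whose version is not given in the sources used here, and the submitters' processing notes also name TopHat, Cufflinks, CASAVA and the mm9 genome, with no role for each. The deposited tables give counts of reads on the 3 junctions of each trio, an inclusion level, as a fraction, with and without the correction that SpliceTrap applies, and a coverage signal that was deposited by the authors and not used here. PSI is the corrected fraction as a percent. A read joining exons that several trios share is listed in each, so gene levels count each distinct junction once.

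Of 218362 exon trios, 209930 could be named, and all 37 Kif genes kept a single offset between mm9 and GRCm38. No Kif trio matched several genes. One trio stood for each internal exon, chosen by its total of junction reads in the 4 tables. Inclusion reads were the rounded mean of the reads on the 2 inclusion junctions, and 2-library tables of inclusion and skipping reads were compared by two-sided Fisher's exact tests with Benjamini-Hochberg adjustment over all cassette exons that had 20 junction reads or more in each library. For exons labelled constitutive the adjustment was over these and the cassette exons together. The Wald chi-square test added 0.5 to each count. Intervals are Wilson or exact 95% intervals. Gene levels were compared at 1.5-fold for genes of 20 reads or more in each library. Analyses used Python 3.11.15, numpy 2.4.6, pandas 2.3.3, scipy 1.17.1 and matplotlib 3.10.9, and the code was tested on simulated data.

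Named exons were those called in any comparison, those past 10 points that failed the test, and those with a junction-read PSI between 10 and 90 in at least 1 library, 20 in all. Named genes were the 3 highest, all past 1.5-fold, and those with a named exon. The members and the gene lists were chosen with earlier results of these data known. Alternatives were other read minimums, junction-read or uncorrected PSI, other trios, limits and scalings. Intron sequence, motifs and protein sequence were not analysed here.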

Additional observations from a re-analysis of the deposited data

Results flagged for a closer look

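The 2 stages gave different knockout effects for 2 kinesin exons in a Wald chi-square test of the difference, adjusted over all cassette exons tested at both stages. For the 180 nt exon of *Kif21b* the log odds ratio of inclusion was 1.87 in the NesKO and 1.18 in the EmxKO, a difference of 0.69 (standard error 0.15, adjusted p = 0.000557, chi-square). For the 27 nt exon 14 of *Kif1a* the log odds ratio was 0.18 in the NesKO and -0.14 in the EmxKO, a difference of 0.32 (standard error 0.083, adjusted p = 0.0131, chi-square). With inclusion taken from the smaller junction, an alternative chosen after seeing the data, the *Kif21b* difference passed (adjusted p = 4.99e-06, chi-square) and that of *Kif1a* did not (adjusted p = 0.0557, chi-square). The stages also differ in tissue, Cre line and library protocol, and the P1 library labelled wild type held reads that skip the targeted exon of *Ptbp2*, and their part in these differences was not tested.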

How the results depend on the processing

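The 3 exons called in the NesKO were called under each of 8 other settings, except that 2 remained at a limit of 20 points, and 8 exons passed at 10 points without the exact test. Of the 4 called in the EmxKO, 1 remained at 20 points and 3 with PSI from junction reads, where *Kif2a* came to 8.72 points, and 6 exons passed at 10 points alone. Between the libraries labelled wild type, 6 passed at 10 points alone, and 2 at 20 points or with constitutive-labelled exons added. With the smaller inclusion junction, the 39 nt exon 12 of *Kif21a* reversed to 5.71 points, the *Kif1a* 24 nt exon came to 8.75 points at P1, the 180 nt exon of *Kif21b* and the 39 nt exon 26 of *Kif21a* passed between the libraries labelled wild type (10.02 and -14.1 points), and 1 exon, that of *Kif21b* and not that of *Kif1a*, had a knockout effect that differed between the stages (an alternative chosen after seeing the data). Those differences are PSI from the smaller junction. With deposited PSI kept and only the exact test moved to the smaller junction, the *Kif21b* exon (0.4 points) was not called. The 3 calls between the libraries labelled wild type then shared 2 with those reported, *Kif21a* exon 26 taking the place of exon 12. The cause was not tested. Of 55 differences of named exons, 54 stayed called or not called, with the same direction where called, with junction-read PSI. The numbers were 55 before the correction, 51 with the smaller junction and 55 with the trio that had most skipping reads. Direction was not counted for exons called in neither setting, and some of these reversed. In the NesKO the 383 nt exon of *Kif2a* went from 12.9 to -0.836 points with junction-read PSI. The 114 nt exon of *Kif2a* went from 3.5 to -3.84 points with the smaller junction. For gene levels in the NesKO, 0 were past 1.5-fold after scaling by the median ratio of all genes or of genes of like GC content, and 2 with no read minimum. In the EmxKO, 5 were past it after scaling by GC content, chosen after seeing the data, of which 4 were lower and among the 8. No paired analysis was possible because each group has 1 library, and for the same reason no replicate could be left out. Depth limits the exons of *Kif16b*, *Kif17*, *Kif20b* and *Kif23* and the 15 nt exon of *Kif21a*, which had few skipping reads.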

Other observations

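Of the constitutive-labelled kinesin exons, 4 were listed at a PSI of 0 in all 4 libraries although no skipping read was listed. They were the 76 nt exon 11 and the 66 nt exon 9 of *Kif1a*, with at least 1184 junction reads per library, and the exons of the same lengths and numbers in *Kif1b*, with at least 313. In *Kif1b* they are the neighbors of the 18 nt exon 10. A further 6 constitutive-labelled exons differed by 10 points or more in deposited PSI between a knockout and its comparison library with no skipping read in either.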
